A study of Mus musculus with 4 samples.

Results

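The endocannabinoid genes examined here were the receptor gene Cnr1 and 6 genes of enzymes that make or break down its ligands, Dagla, Daglb, Napepld, Mgll, Faah and Abhd6. They were chosen by name, and all 7 were found among the 31053 genes of the count matrices. Male C57BL/6 mice of 8 weeks of age had received 5 retrograde AAVs on one side of the brain, each with EGFP and its own barcode under a CAG promoter, in the lateral hypothalamus, basolateral amygdala, mediodorsal thalamus, dorsomedial striatum and agranular insula. Weeks later the ventromedial prefrontal cortex (prelimbic and infralimbic areas) was dissociated and single-cell RNA was counted. Unsorted cells made up 3 libraries, whose titles name mouse 1, 2 and 3 (unsorted 1, 2 and 3 below). Cells sorted for EGFP from a pool of 3 further mice made up 1 more, the sorted library. Every animal had been injected, and no uninjected group was compared. The labels do not say that cells of each mouse were kept apart until loading, so that p-values measure the spread between libraries, which may be technical.

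Cnr1 encodes cannabinoid receptor type 1, a G protein-coupled receptor found mostly on axon terminals, where its activation reduces transmitter release. Its lipid ligand 2-arachidonoylglycerol is made in the membrane of the postsynaptic cell by the diacylglycerol lipases DAGLα (Dagla) and DAGLβ (Daglb), travels backwards across the synapse and is cleaved mainly by monoacylglycerol lipase (Mgll), with a smaller part played by ABHD6 (Abhd6). Anandamide, another ligand, can be released from its phospholipid precursor by NAPE-PLD (Napepld) and is cleaved by fatty acid amide hydrolase (Faah). In the cortex the receptor is best known from a class of interneurons that contain cholecystokinin, some of which also carry Sncg or Vip.

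The 4 matrices held 24801 cell barcodes and 309539569 UMIs, with 54749198 to 87841541 UMIs per library. Excitatory neurons were the 9368 cells of the deposited metadata, which carries the authors' 7 subtype labels. Inhibitory cells were the 1283 cells absent from that file with 4 or more Gad1 and Gad2 UMIs, at most 3 Slc17a7 UMIs and totals within the limits stated in the methods, 1278 of them unsorted and 5 sorted. The median excitatory neuron had 31670 UMIs in the sorted library, against 21362 to 23213 without sorting, where the median inhibitory cell had 13277 to 14101. All of the 4 or 5 markers checked per cell class, and all 7 genes that give a subtype its name, were highest in the group they mark. The non-neuronal markers, Gad1, Gad2 and Slc17a7 also entered the gates, and the subtypes are named for their genes. For these genes the result is therefore no independent check of the groups. Between 5 and 30 cell barcodes were shared by any 2 libraries, at most 5 of them neurons in both. Levels below are CPM, the UMIs of a gene per 1000000 UMIs of all genes, both summed over the cells of a group in a library. They are given as the mean ± SD of the 3 unsorted libraries (n = 3) unless stated otherwise, with the sorted library beside them where it held 10 or more such cells.

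Cnr1 differed most of the 7 genes between the neuron classes. Summed over inhibitory cells, its level was 2367, 2079.8 and 1859 CPM in unsorted 1, 2 and 3, against 147, 131 and 138 CPM over excitatory neurons of the same libraries. Inhibitory cells were thus 15.1 ± 1.44-fold higher within a library, and no inhibitory sum overlapped an excitatory one. In the edgeR quasi-likelihood fit over the 15266 genes tested, with the library as a block, this was a log2 fold change 3.82 ± 0.03 (SE), adjusted p = 7.38e-49. A gene is called below when its adjusted p is under 0.05 and its log2 fold change at least 0.5 in size. A mean of other groups is, in all tests below, the mean of their fitted log2 levels. Groups with very low levels pull it down. In this comparison 5 of the 7 endocannabinoid genes were called, beside 40.4% of all genes tested. Inhibitory cells made up 6.57 ± 0.510% of the cells within the limits in the unsorted libraries but held 58.7 ± 3.63% of the Cnr1 UMIs of those cells. The difference depended on which cells were summed. Without the L6-Syt6 neurons, which are most of the excitatory cells, the log2 fold change was 2.71, and without the inhibitory cells led by Sncg it was 3.13. Both settings were chosen after the data had been seen.

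Among inhibitory cells Cnr1 differed at every step between marker groups, with the Sncg-led cells far above the rest. The cells were grouped by their leading marker among Pvalb, Sst, Vip, Lamp5 and Sncg, which was required to have 3 or more UMIs and 2 times those of any other of the 5. The 104 Sncg-led cells had 8539, 7597 and 6167 CPM of Cnr1. The 478 Vip-led cells had 1792, 2011 and 2231 CPM, the 85 Lamp5-led cells 659, 639.8 and 535 CPM and the 387 Sst-led cells 422, 352 and 380.2 CPM. The 41 Pvalb-led cells had 113, 67.0 and 33.7 CPM, the last value from 9 cells, too few to enter the fit. None of these 5 groups overlapped its neighbour in the order across the unsorted libraries. Against the mean of the other groups, the log2 fold change of Cnr1 was 4.08 ± 0.07 (SE) in Sncg-led, 1.68 ± 0.08 in Vip-led, -0.52 ± 0.12 in Lamp5-led, -1.33 ± 0.12 in Sst-led and -3.92 ± 0.19 in Pvalb-led cells, and all 5 were called. The Lamp5 value lay next to the limit and was no longer called without unsorted 3 (-0.45) or after thinning (-0.47). Leaving out unsorted 1 or unsorted 2 removed the Pvalb-led cells from the fit and so moved the reference. The log2 fold change was then -1.61 and -1.65 in Lamp5-led, -2.50 and -2.38 in Sst-led and 0.89 and 0.75 in Vip-led cells.

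The same inhibitory cells can be split by the transcription factor Lhx6, found in interneurons from the medial ganglionic eminence, and by Adarb2, found mostly in those from the caudal eminence. The 795 unsorted cells with Adarb2 and no Lhx6 UMI had 4121, 3483 and 3079 CPM of Cnr1 and the 421 cells with Lhx6 and no Adarb2 UMI had 362, 305 and 341 CPM. Adarb2 cells were 10.6 ± 1.37-fold higher (log2 fold change 3.40 ± 0.05 (SE), adjusted p = 4.01e-27).

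Counts in single cells showed the same order. Every one of the 104 Sncg-led cells held Cnr1, with a lowest count of 28 UMIs, a median of 133 and a highest of 664. These cells were 0.532 ± 0.0670% of the cells within the limits and held 26.5 ± 6.20% of their Cnr1 UMIs. Vip-led cells had a median of 11 UMIs but a long upper tail to 251, and 24.7% of them held 20 or more. Of the 57 Vip-led cells that also held an Sncg UMI, 53 (93.0%) reached 20, against 65 (15.4%) of the 421 without one. The summed levels were 4916, 5374 and 5161 CPM in the cells with Sncg, against 1301, 1263 and 1350.0 CPM in those without. This split was made after the data had been seen and is given without a test. The cells with Sncg were also deeper, with a median of 15016 against 9080.0 UMIs. Pvalb-led cells had a median of 1 Cnr1 UMI and none above 8.

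**Figure D1:**
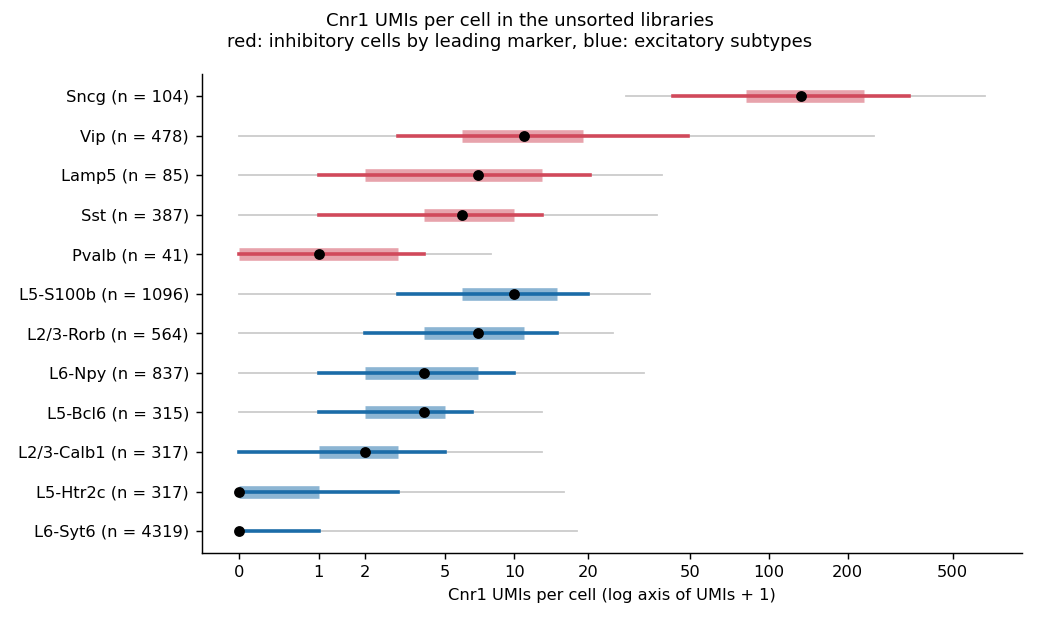
Cnr1 UMIs per cell on a log axis of UMIs + 1, for inhibitory cells by leading marker (red) and excitatory subtypes (blue) of the unsorted libraries. Points are medians, thick bars the middle 50% of cells, coloured lines the 10th to 90th percentile and grey lines the full range. The lowest Sncg-led cell, at 28 UMIs, lies above the 90th percentile of L5-S100b neurons, 20 UMIs.

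Within excitatory neurons Cnr1 was ordered by subtype without overlap between neighbours over unsorted 1, 2 and 3. The top subtype, L5-S100b, had 444, 425 and 431 CPM (475 sorted). L2/3-Rorb followed with 368, 313 and 362 CPM (399 sorted), L6-Npy with 277, 254 and 238 CPM (283 sorted) and L5-Bcl6 with 171, 152 and 154 CPM (161 sorted). The lower end was formed by L2/3-Calb1 with 140.4, 117 and 113 CPM (154 sorted), L5-Htr2c with 71.0, 76.0 and 57.4 CPM and L6-Syt6 with 12.6, 13.6 and 14.6 CPM (12.6 sorted). The 2 upper-layer subtypes thus differed from each other, as did the 2 layer 6 subtypes. L6-Syt6 stood 32.0 ± 2.96-fold below L5-S100b. Against the mean of the other 6 subtypes, the log2 fold change of Cnr1 was 2.03 ± 0.04 (SE) in L5-S100b, 1.63 ± 0.05 in L2/3-Rorb, 1.14 ± 0.05 in L6-Npy, -1.20 ± 0.09 in L5-Htr2c and -3.77 ± 0.06 in L6-Syt6. These 5 were called, whereas L5-Bcl6 (0.31 ± 0.06) and L2/3-Calb1 (-0.13 ± 0.07) stayed under the fold limit. The subtype labels were drawn by the authors from the expression of these same cells, so that p-values between subtypes are not independent of the labels and are not printed.

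The share of cells with a Cnr1 UMI was 96.1 ± 0.512% in L5-S100b and 18.4 ± 0.403% in L6-Syt6. After each cell was thinned to 5000 UMIs these shares were 81.9 ± 1.23% and 6.65 ± 0.0929%, beside 4.36 ± 0.197% of microglia, 2.48 ± 0.898% of oligodendrocytes and 2.01 ± 1.84% of endothelial cells, which serve as a measure of free RNA. Only 828 microglia, 684 oligodendrocytes and 263 endothelial cells were deep enough to be thinned, and the median unthinned cell of these classes had 4182, 4738 and 2746 UMIs. In L6-Syt6 neurons the median count was 0 and 31 of 4319 cells held 5 or more Cnr1 UMIs.

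**Figure D2:**
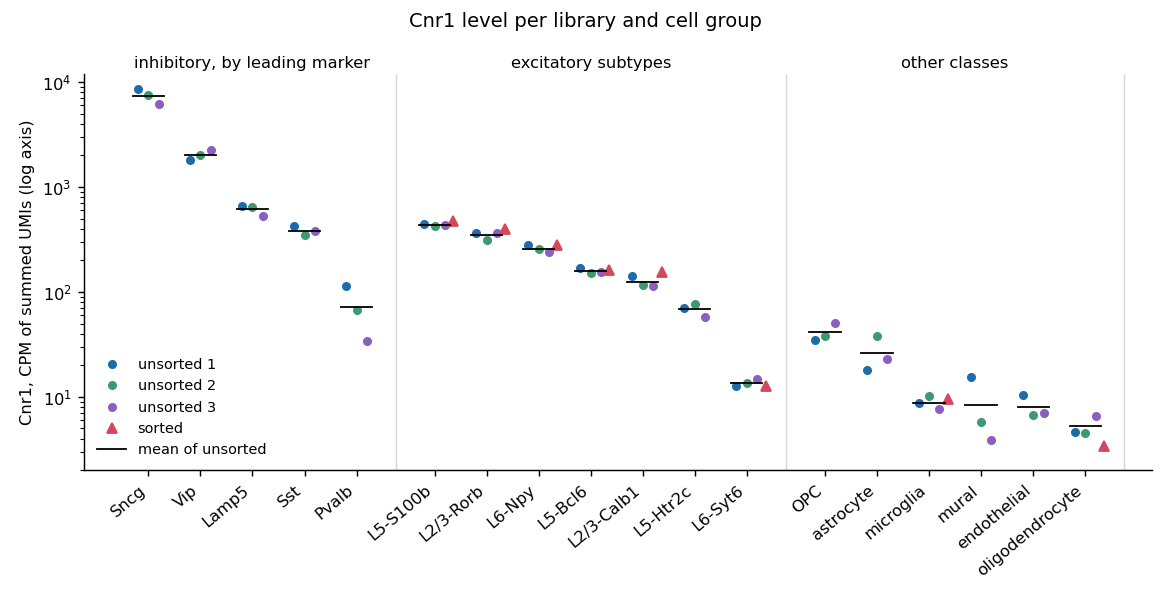
Cnr1 in CPM on a log axis for each library (points) and as the mean of the unsorted libraries (lines), by inhibitory leading marker, excitatory subtype and other cell class. The sorted library is shown where it held 10 or more cells. Sncg-led cells lie between 6167 and 8539 CPM, and L6-Syt6 neurons, below 15 CPM, sit under every library of the next subtype, L5-Htr2c, whose lowest is 57.4 CPM.

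Outside neurons Cnr1 was low, and free RNA limits what can be said. It was 41.2 ± 8.34 CPM in oligodendrocyte precursors (OPC) and 26.3 ± 10.4 CPM in astrocytes, where it rests on 39 UMIs. In microglia, endothelial cells, mural cells and oligodendrocytes the means lay between 5.28 and 8.78 CPM. As a share of the level over all barcodes of the library, Cnr1 stood at 1.99 to 3.26% in those 4 classes, whereas the excitatory markers Neurod6 and Tbr1, which they should lack, stood at 1.75 to 4.50%. Cnr1 in these 4 classes was therefore not separable from free RNA. In OPC it was 15.6%, against 1.69 to 2.65% for these markers, and in astrocytes 9.82% against 2.06 to 2.66%. The OPC gate also held a Gad1 level of 50.1 ± 1.24 CPM, above the 5.96 ± 1.16 CPM of microglia, but a Gad2 level of only 2.88 ± 1.84 CPM, and the part of inhibitory RNA in the Cnr1 level of OPC was not tested.

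Cnr1 lies on the plus strand of chromosome 4 and Mgll on the plus strand of chromosome 6, and their promoters are shown because they share an E-box. The RefSeq promoter windows (GRCm38.p6, 250 bases before to 50 bases after a start site) covered 6 of the 7 members, Dagla having none in the table. For each of these 2 genes the window that holds the E-box CACGTG is printed, 5′ to 3′, with these letters in capitals. The windows are chr4:33924394-33924693 and chr6:88724162-88724461.
Cnr1: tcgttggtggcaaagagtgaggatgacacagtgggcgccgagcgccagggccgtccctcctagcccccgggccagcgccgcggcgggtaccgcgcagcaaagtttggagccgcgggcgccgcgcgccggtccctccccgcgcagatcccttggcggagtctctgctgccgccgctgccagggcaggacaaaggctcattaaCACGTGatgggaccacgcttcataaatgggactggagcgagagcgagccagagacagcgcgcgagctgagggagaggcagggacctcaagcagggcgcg
Mgll: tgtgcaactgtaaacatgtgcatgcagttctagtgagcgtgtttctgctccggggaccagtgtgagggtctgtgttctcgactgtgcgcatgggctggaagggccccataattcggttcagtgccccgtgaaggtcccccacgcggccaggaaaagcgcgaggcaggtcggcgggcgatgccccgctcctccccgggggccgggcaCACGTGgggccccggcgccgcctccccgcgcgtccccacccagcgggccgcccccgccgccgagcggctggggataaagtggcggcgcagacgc
The letters begin 49 bases before the start site in the Cnr1 window and 44 bases before it in the Mgll window. CACGTG was present in 2 of the 10 windows of members and in 7.15% of all 32851 windows, searched on both strands. TATAAA was in 0 of the 10 and in 13.6% of all windows. The G+C content was 69.0% in the Cnr1 and 70.0% in the Mgll window, against a median of 52.7% over all windows. A match of letters is a description only, and the windows were chosen after the levels were known.

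All 7 are protein-coding genes, placed here on GRCm38 by GENCODE: Cnr1 at chr4:33924593-33948831 (plus strand), Dagla at chr19:10245265-10304877 (minus strand), Daglb at chr5:143464584-143505942 (plus strand), Napepld at chr5:21662901-21701396 (minus strand), Mgll at chr6:88724412-88828360 (plus strand), Faah at chr4:115967145-116017926 (minus strand) and Abhd6 at chr14:8002902-8056763 (plus strand). None shares an exon on its strand with another gene of that annotation.

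Dagla, the diacylglycerol lipase that makes most 2-arachidonoylglycerol in neurons, was higher in excitatory than in inhibitory neurons. Its level was 16.2, 16.2 and 19.9 CPM in excitatory and 9.57, 9.32 and 9.57 CPM in inhibitory cells of unsorted 1, 2 and 3, without overlap (log2 fold change -0.98 ± 0.10 (SE), adjusted p = 2.90e-11). Excitatory neurons held 84.7 ± 0.929% of the Dagla UMIs of the cells within the limits, and 70.7% of all their UMIs. Among subtypes the means ran from 10.6 ± 1.54 CPM in L5-Bcl6 to 19.5 ± 1.67 CPM in L2/3-Calb1, and every subtype overlapped its neighbour in this order. L5-Bcl6 (-0.56 ± 0.15) and L5-Htr2c (-0.59 ± 0.21) were called lower, but neither call held when unsorted 2 (for L5-Bcl6) or unsorted 1 or 3 (for L5-Htr2c) was left out, with values of -0.48, -0.40 and -0.49. Among inhibitory cells the order was the reverse of that for Cnr1 between the lineages. Dagla was 14.9, 12.2 and 14.7 CPM in Lhx6 cells and 5.01, 6.83 and 5.42 CPM in Adarb2 cells (log2 fold change -1.26 ± 0.24 (SE), adjusted p = 0.00012, not called by DESeq2). The Sncg-led cells, highest in Cnr1, had the lowest mean of Dagla, 3.35, 3.47 and 4.79 CPM from 9 UMIs in all.

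In the other classes Dagla was 18.0, 13.4 and 17.7 CPM in astrocytes, overlapping the excitatory neurons, and 7.12 ± 1.46 CPM in microglia. Oligodendrocytes held 0, 1 and 2 Dagla UMIs in the 3 libraries, among 1716 cells. Against the mean of the other classes on the log2 scale, Dagla was called higher in excitatory (2.15 ± 0.12), astrocyte (1.81 ± 0.37), microglia (1.21 ± 0.23) and inhibitory cells (0.98 ± 0.19). It was called lower in oligodendrocytes (-4.13 ± 0.55, resting on these 3 UMIs), whose very low level pulls down the mean for the other classes. After thinning, the values in microglia (0.34) and inhibitory cells (0.49) were no longer called.

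Daglb, the second diacylglycerol lipase, was highest in microglia. Its level there was 277, 291 and 265 CPM in unsorted 1, 2 and 3 and 284 CPM in the sorted library. The next class, OPC, had 42.9, 45.6 and 39.0 CPM, and excitatory and inhibitory neurons had 25.4 ± 0.404 and 24.9 ± 0.618 CPM, which overlapped (log2 fold change -0.13 ± 0.07 (SE), adjusted p = 0.109, 95% interval -0.27 to 0.01). Microglia against the mean of the other classes gave a log2 fold change 4.17 ± 0.05 (SE), adjusted p = 6.09e-71. Microglia were 15.3 ± 0.154% of the cells within the limits and 5.05% of their UMIs, yet held 36.1 ± 1.41% of the Daglb UMIs. Among excitatory subtypes Daglb was nearly level, from 23.5 ± 0.272 CPM in L6-Syt6 to 30.2 ± 0.559 CPM in L5-S100b, except for L5-Htr2c at 12.8, 16.7 and 18.3 CPM (-0.90 ± 0.14, called). No inhibitory group was called for Daglb.

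Napepld, the phospholipase that releases anandamide from its precursor, was 12.5 ± 0.272 CPM in excitatory and 8.66 ± 0.997 CPM in inhibitory neurons (log2 fold change -0.63 ± 0.11 (SE), adjusted p = 4.28e-06, lower in 3 of 3 libraries). The highest class was endothelial, with 16.8, 21.5 and 18.1 CPM from 95 UMIs (log2 fold change 2.27 ± 0.24 (SE), adjusted p = 2.04e-13). The lowest were microglia, with 14 UMIs in 2979 cells, and astrocytes, with 1 UMI in 452 cells. Among subtypes L2/3-Calb1 had 30.3, 22.1 and 23.7 CPM (29.0 sorted) and did not overlap L2/3-Rorb, the next, at 15.1, 14.3 and 16.5 CPM. L2/3-Calb1 was called higher (1.18 ± 0.14), and L5-Bcl6 (-0.64 ± 0.17) and L5-Htr2c (-1.27 ± 0.26, 27 UMIs) lower. The L5-Bcl6 call was lost after thinning (-0.97).

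Mgll, the main lipase for 2-arachidonoylglycerol, was highest in astrocytes. They had 1477, 1422 and 1374 CPM in unsorted 1, 2 and 3, and the next class, OPC, had 182, 169.7 and 172 CPM. The astrocytes' log2 fold change against the mean of the other classes was 3.99 ± 0.05 (SE, adjusted p = 3.37e-66). They were 0.610% of the UMIs of the cells within the limits but 9.44 ± 1.09% of the Mgll UMIs. Excitatory neurons, the most abundant class, held 59.4 ± 1.23%. Mgll was 134, 130.1 and 109 CPM in inhibitory and 79.8, 76.3 and 75.9 CPM in excitatory neurons (log2 fold change 0.59 ± 0.04 (SE), adjusted p = 1.21e-16), and this log2 fold change was 1.31 when L6-Syt6 was left out of the excitatory side.

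Among excitatory subtypes Mgll was highest where Cnr1 was lowest. L6-Syt6 had 105, 97.8 and 96.2 CPM (139.9 sorted). L5-S100b (65.2, 62.4 and 64.7 CPM) and L2/3-Rorb (64.1, 66.2 and 61.6 CPM) overlapped each other, and L2/3-Calb1, L6-Npy and L5-Htr2c followed between 28.4 and 38.5 CPM. L5-Bcl6 was the lowest, with 11.3, 15.3 and 16.2 CPM and 14.7 CPM sorted. The log2 fold change against the other subtypes was 1.63 ± 0.04 in L6-Syt6, 0.75 ± 0.05 in L5-S100b and 0.71 ± 0.06 in L2/3-Rorb, and -0.71 ± 0.12 in L5-Htr2c and -1.88 ± 0.11 in L5-Bcl6, all called. Over the 7 subtypes the log2 levels of Cnr1 and Mgll had a Pearson r of -0.25 (n = 7 subtypes that share their libraries, given as a description).

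Among inhibitory cells Mgll was highest in Lamp5-led cells, which include neurogliaform cells, with 342, 349.5 and 275 CPM (log2 fold change 1.62 ± 0.13 (SE), adjusted p = 1.75e-11). Sncg-led cells varied most between libraries, with 216, 154 and 83.0 CPM. Sst-led (96.9 ± 3.84 CPM), Vip-led (99.2 ± 5.46 CPM) and Pvalb-led cells (84.9 ± 23.2 CPM) overlapped. Sst-led (-0.51 ± 0.12) and Pvalb-led cells (-1.06 ± 0.25) were called lower, the first only just past the limit and not with DESeq2 (-0.49), without the filter on low counts (-0.46) or after thinning (-0.34). Vip-led cells (-0.45 ± 0.13) were under the limit, but were called lower without unsorted 1 (-0.66), 2 (-0.76) or 3 (-0.53). With a stricter marker gate the Sst (0.31) and Vip (0.41) values had the opposite sign and the Pvalb call was lost (-0.57). Under that gate Lamp5-led cells left the fit.

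Faah, the enzyme that cleaves anandamide, was highest in excitatory neurons, with 60.9, 62.8 and 61.4 CPM in unsorted 1, 2 and 3. Inhibitory neurons had 40.2, 39.1 and 36.2 CPM (log2 fold change -0.78 ± 0.06 (SE), adjusted p = 1.94e-15), and the 5 inhibitory groups were alike in that none was called, with means of 33.6 to 47.7 CPM. Excitatory neurons held 86.0 ± 1.17% of the Faah UMIs. The upper-layer subtypes were the highest. L2/3-Calb1 had 121, 127 and 116 CPM and L2/3-Rorb 97.4, 101 and 94.2 CPM, both called higher (0.82 ± 0.06 and 0.55 ± 0.05). L5-S100b had 83.0 ± 2.14 CPM and L6-Npy 69.3 ± 3.06 CPM. L5-Bcl6, L5-Htr2c and L6-Syt6 lay between 47.5 and 54.2 CPM, of which L5-Htr2c (-0.68 ± 0.08) and L6-Syt6 (-0.58 ± 0.04) were called lower.

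Of the other classes, OPC had 29.0, 28.0 and 21.8 CPM of Faah and oligodendrocytes 15.5, 19.2 and 11.5 CPM. As shares of the library level these were 51.4% and 30.1%, far above the 1.69 to 2.65% at which Neurod6 and Tbr1 stood in both. On the log2 scale both classes were called higher than the mean of the others (1.85 ± 0.22 in OPC, 1.64 ± 0.23 in oligodendrocytes), which very low classes pull down. The values were 2.60 and 2.49 without unsorted 1, and after thinning 0.58 in OPC, no longer called, and 1.09 in oligodendrocytes, still called. Astrocytes, microglia, endothelial and mural cells held 4, 23, 6 and 1 Faah UMIs in all, and their shares of the library level were 1.27 to 4.96%, the highest being that of astrocytes. Neurod6 and Tbr1 stood at 1.86 to 4.50% in these 4 classes.

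Abhd6, a further hydrolase of 2-arachidonoylglycerol, differed little between the neuron classes, with 26.1, 26.3 and 25.3 CPM in excitatory and 31.1, 32.8 and 32.1 CPM in inhibitory neurons. Inhibitory cells were higher in 3 of 3 libraries, under the fold limit (log2 fold change 0.20 ± 0.07 (SE), adjusted p = 0.00792), and this was -0.01 after thinning and -0.05 without L6-Syt6. Astrocytes (85.9, 98.4 and 85.0 CPM) and microglia (64.2, 59.6 and 56.2 CPM) were the highest classes, both called (1.51 ± 0.15 and 1.63 ± 0.08; the first was 1.05 and not called after thinning), and mural cells were the lowest (7.77, 3.87 and 7.79 CPM from 10 UMIs). Among inhibitory cells Abhd6 was highest in the Lamp5-led, at 57.1, 63.2 and 76.8 CPM (log2 fold change 0.86 ± 0.18 (SE), adjusted p = 0.000429), and was called lower in Sst-led (-1.07 ± 0.14) and Vip-led cells (-0.73 ± 0.15), the last not without unsorted 1 (-0.46). Among subtypes L5-Htr2c was called lower (-0.87 ± 0.14), and the 4 subtypes of layers 2/3 and 5 other than L5-Htr2c lay between 33.0 and 36.3 CPM.

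**Figure D3:**
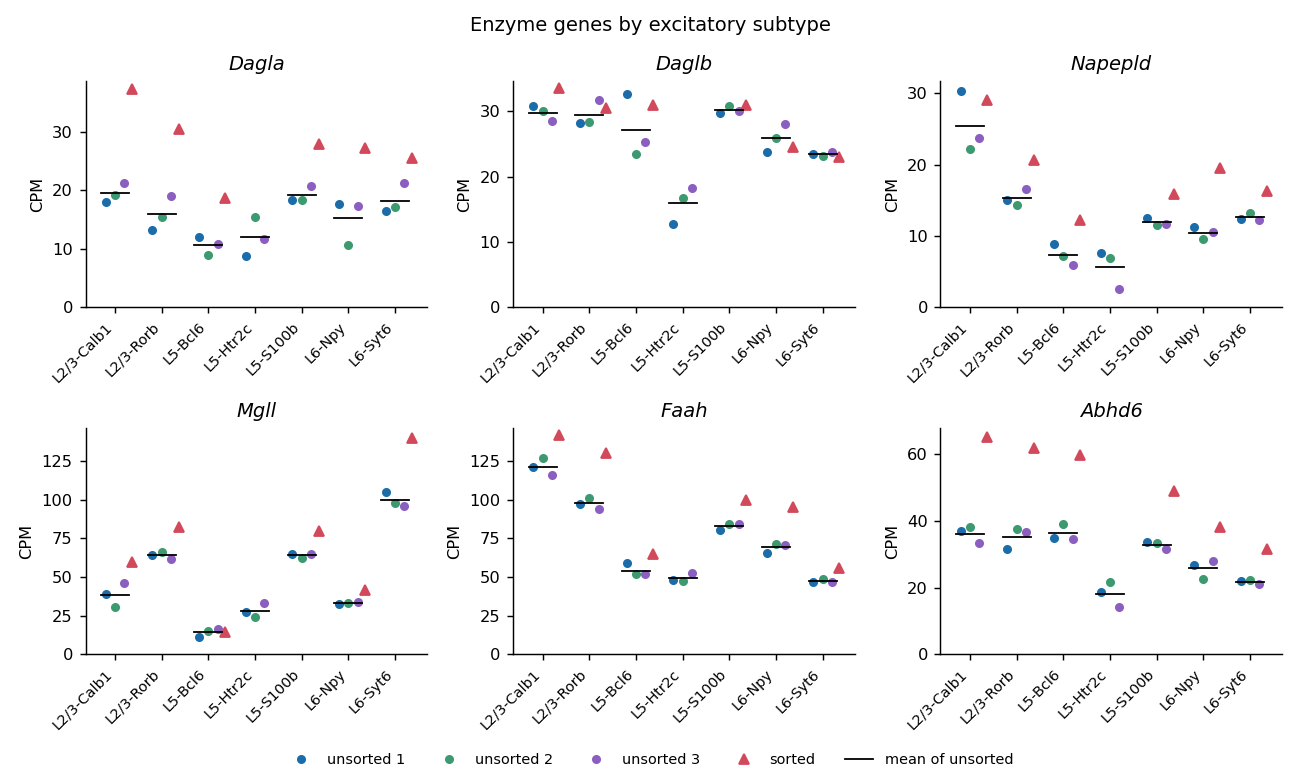
The 6 enzyme genes by excitatory subtype, in CPM from 0, with a point per unsorted library, a triangle for the sorted library and a line at the mean of the unsorted libraries. Mgll peaks in L6-Syt6 near 100 CPM and is lowest in L5-Bcl6 near 14 CPM, and Faah falls from L2/3-Calb1 near 121 CPM to L6-Syt6 near 47 CPM.

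**Figure D4:**
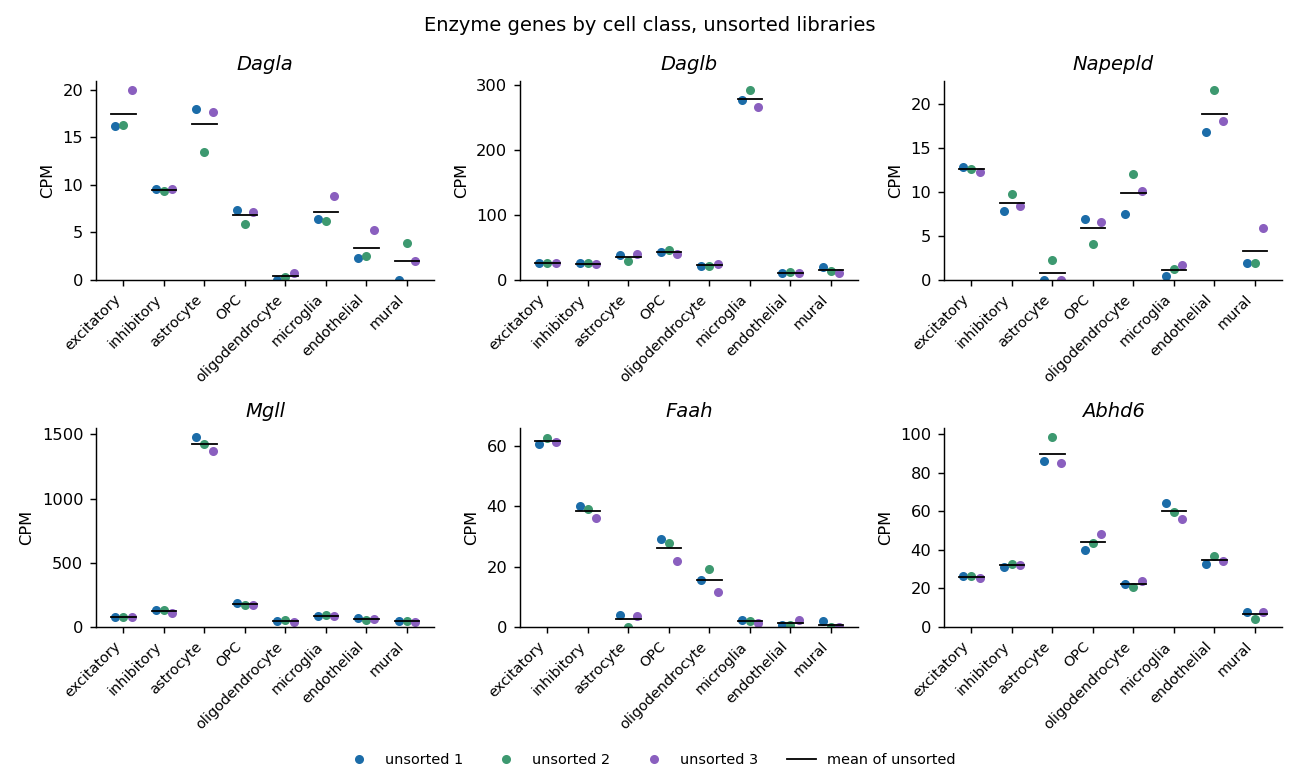
The 6 enzyme genes by cell class in the unsorted libraries, in CPM from 0, each panel on its own scale, with a point per library and a line at the mean. Daglb stands out in microglia, at 265 to 291 CPM, and Mgll in astrocytes, at 1374 CPM or more in each library.

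The calls of the members are set here beside those of all genes tested. Of 49 member and subtype pairs 21 were called, 9 higher and 12 lower. All 7 members were called lower in L5-Htr2c, beside 27.5% of the 13036 genes tested, with a median log2 fold change of -0.87 against -0.02 over all genes. L5-Htr2c was also the shallowest subtype, with a median of 14549 UMIs per cell against 18593 to 25561.5 in the others, and the part of this difference in the result was not tested. After thinning to 5000 UMIs, 6 of the 7 were still called, Dagla no longer (-0.76). In the other subtypes the count of members called was 2 in L2/3-Calb1 (background 21.5%), 3 in L2/3-Rorb (19.4%), 3 in L5-Bcl6 (18.9%), 3 in L6-Syt6 (27.5%), 2 in L5-S100b (16.6%) and 1 in L6-Npy (18.6%). With 7 members, such counts lay near the background or above it.

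Across the 8 classes 37 of 56 member and class pairs were called, 18 higher and 19 lower. The count was 5 of 7 in excitatory neurons (background 59.8% of 14298 genes), 5 in inhibitory neurons (56.3%), 5 in astrocytes (47%), 6 in microglia (57.2%), 5 in oligodendrocytes (48.9%), 5 in endothelial cells (51%), 5 in mural cells (39%) and 1 in OPC (46.2%). In mural cells all 5 were lower. Of these calls, Faah lower in astrocytes (-1.35), endothelial cells (-1.57) and microglia (-0.93) and Daglb lower in inhibitory cells (-0.48) were no longer called without unsorted 1, nor was Napepld lower in microglia (-1.08) without unsorted 2. Among inhibitory groups 13 of 35 pairs were called: 3 of 7 members in Lamp5-led cells (background 16.3% of 10257 genes), 2 in Pvalb-led (17%), 2 in Sncg-led (20.7%), 4 in Sst-led (16.2%) and 2 in Vip-led cells (19.1%). Dagla was called lower in Sncg-led (-1.42 ± 0.43) and higher in Sst-led cells (0.86 ± 0.25), the first not without unsorted 1 (-1.36) or 2 (-1.29) and the second not without unsorted 3 (0.82) or by DESeq2. Between Adarb2 and Lhx6 cells 4 of 7 were called, beside 21% of 11515 genes: Cnr1, Mgll (0.61 ± 0.08) and Abhd6 (0.58 ± 0.12) higher in Adarb2 cells and Dagla lower. Abhd6 was not called by DESeq2 or after thinning, and Mgll not after thinning (0.40).

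A list of 20 further genes of the pathway was examined beside the members: other receptors, enzymes of side routes, fatty acid binding proteins that carry anandamide, and the receptors and phospholipases that feed the diacylglycerol lipases. Of these, 16 could be tested between inhibitory and excitatory neurons. In inhibitory cells 2 were called higher and 4 lower, beside 40.4% of all 15266 genes tested. Their median log2 fold change was -0.22, against -0.13 over the 7 members and -0.01 over all genes. Naaa, a lysosomal amidase of anandamide-like lipids, was among those higher in inhibitory cells (log2 fold change 1.34 ± 0.13), though both neuron classes lay far below astrocytes, at 175 ± 17.5 CPM. Lower in inhibitory cells were Chrm1, the muscarinic M1 receptor (-1.59 ± 0.07), Gde1, a phosphodiesterase of another route to anandamide (-0.76 ± 0.03), the phospholipase Plcb4 (-0.58 ± 0.04) and Ptgs2, cyclooxygenase-2, which oxidises endocannabinoids (-5.74 ± 0.19), at 0.479 ± 0.151 CPM in inhibitory and 24.1 ± 2.45 CPM in excitatory neurons.

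Among subtypes Ptgs2 was 118 ± 11.1 CPM in L6-Npy and 11.2 ± 0.810 CPM in L6-Syt6. Plcb4 followed Mgll in being highest in L6-Syt6, at 155 ± 0.803 CPM against 23.4 ± 1.89 CPM in L5-S100b. Among the 16 tested, 4 were called higher and 5 lower in L6-Syt6, and 3 higher and 4 lower in L5-Htr2c, beside 27.5% of all genes in each. The counts higher and lower were 4 and 1 in L2/3-Calb1 (background 21.5%) and 4 and 2 in L6-Npy (18.6%). They were 2 and 2 in each of L2/3-Rorb (19.4%), L5-Bcl6 (18.9%) and L5-S100b (16.6%). The receptor gene Cnr2 was seen at 3.64 ± 1.86 CPM in microglia, with at most 0.0224 CPM in any other class, and was too low to be tested. Fabp7, an anandamide carrier of glia, stood at 1109 ± 47.3 CPM in OPC and 487 ± 53.0 CPM in astrocytes, while Fabp5 was highest in oligodendrocytes, at 1187 ± 3.86 CPM.

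The genes whose levels ran most like Cnr1 over the 12 neuron groups (7 subtypes and 5 inhibitory groups), by Pearson correlation of log2(CPM + 1) among 9197 genes with a mean of 10 CPM or more, were Cacna1b (r = 0.94), which encodes the N-type calcium channel of axon terminals, Mn1 (0.92), Tle2 (0.90), Zfp57 (0.90) and Cep192 (0.89). Those most like Mgll were Kit (0.94), a receptor tyrosine kinase, Dalrd3 (0.91), Pex11a (0.90), Nop16 (0.90) and Dpp7 (0.88). They are the highest of many, over groups that share their libraries, and are given as a description.

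Neurons that hold a retrograde viral barcode are taken to project to at least 1 injected target, whereas a neuron without viral UMIs need not lack such a projection. Barcode-high neurons (5 or more viral UMIs) were compared with barcode-zero neurons within 4 subtypes. Of 28 member and subtype pairs, 1 was called. Mgll was higher in barcode-high L5-S100b neurons, with 69.6, 67.1 and 68.4 CPM in unsorted 1, 2 and 3 and 86.2 CPM sorted, against 43.6, 27.0 and 59.0 CPM and 50.0 CPM in barcode-zero neurons. It was higher in 4 of 4 libraries (log2 fold change 0.72 ± 0.12 (SE), adjusted p = 0.000167), beside 2.61% of 12081 genes called in that subtype. The barcode-zero cells, 195 over the 4 libraries, held 139 Mgll UMIs in the unsorted ones. They were also shallower, with median totals of 19306.5 to 28185 UMIs per library against 25553.5 to 34389 in the 958 barcode-high cells. After thinning to 5000 UMIs, which drops shallower cells and leaves fewer counts, the log2 fold change was 0.49 and not called. Over this value and its 9 alternatives it ran from 0.49 to 0.91, with adjusted p from 9.46e-09 to 0.436.

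In the other 3 subtypes the log2 fold change of Mgll was 0.19 ± 0.15 in L6-Npy, 0.10 ± 0.06 in L6-Syt6 and -0.18 ± 0.13 in L2/3-Rorb, none called. The effect in L5-S100b exceeded that in L2/3-Rorb by a log2 value of 0.90 ± 0.19 (adjusted p = 0.0083, beside 0.455% of genes called) and that in L6-Syt6 by 0.62 ± 0.14 (adjusted p = 0.00391, beside 3.79%). These were the only 2 of the 42 member differences between subtype pairs that were called. Neither was called without unsorted 2 (-0.72 for L2/3-Rorb minus L5-S100b and 0.47 for L5-S100b minus L6-Syt6), and the first was not called without unsorted 1 (-0.96, adjusted p = 0.0555). Over their alternatives the adjusted p ran up to 0.912 and 0.605. Against L6-Npy the difference was 0.53 ± 0.20 (adjusted p = 0.296).

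Cnr1 in L6-Syt6 was 15.8, 15.5 and 18.6 CPM in barcode-high and 11.1, 12.9 and 12.0 CPM in barcode-zero neurons of unsorted 1, 2 and 3, but 11.0 and 16.7 CPM in the sorted library, where the order was the other way round. The log2 fold change, 0.39 ± 0.11 (adjusted p = 0.0148), stayed under the fold limit, and it was 0.52 and called without the sorted library. In L5-S100b, where Cnr1 is high, it was -0.10 ± 0.07 (95% interval -0.24 to 0.05), in L6-Npy 0.09 ± 0.08 and in L2/3-Rorb 0.10 ± 0.09. The 27 pairs not called had 95% intervals within -0.89 and 0.94, and the widest were those of Dagla and Napepld. No member was called in L2/3-Rorb (background 0.0414%), L6-Npy (0.472%) or L6-Syt6 (2.13%), or for the differences L2/3-Rorb minus L6-Npy (0.0166%), L2/3-Rorb minus L6-Syt6 (0.96%), L5-S100b minus L6-Npy (0.886%) and L6-Npy minus L6-Syt6 (1.78%).

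Of the 16 genes of the pathway list tested, Ptgs2 was called higher in barcode-high neurons of L6-Npy (0.87 ± 0.16) and L6-Syt6 (0.82 ± 0.19), in neither case by DESeq2. Plcb1, a phospholipase that yields diacylglycerol, was called for the difference L5-S100b minus L6-Syt6 (0.57 ± 0.08).

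**Figure D5:**
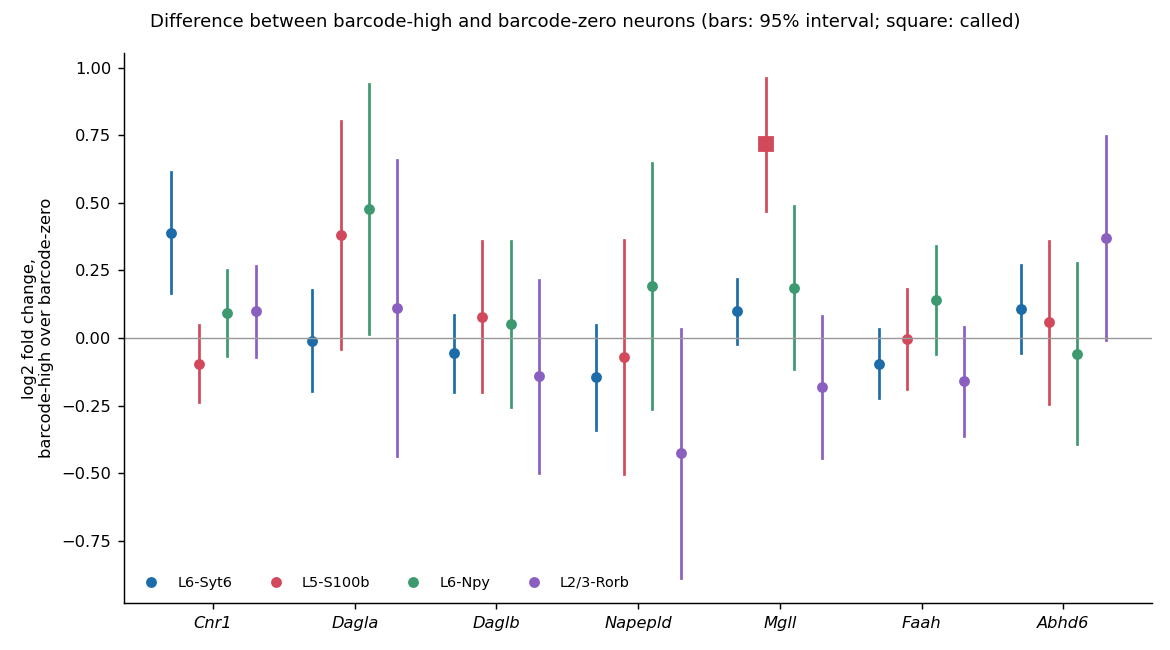
Log2 fold change of each gene between barcode-high and barcode-zero neurons in 4 subtypes, with 95% intervals (1.96 SE). The square marks the called value, Mgll in L5-S100b at 0.72, and the intervals of Mgll in the other 3 subtypes include 0.

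The sorted library stood apart for some members. In the 6 subtypes with 10 or more sorted cells, Dagla, Faah and Abhd6 were above all 3 unsorted libraries in each subtype, 3 of 7 members, beside 20.6% of 13036 genes. Their median ratio to the unsorted mean was 1.78 for Dagla, 1.57 for Abhd6 and 1.20 for Faah, against a median of 1.07 over all genes. Cnr1 was above in 4 subtypes and below in 1, with a median ratio of 1.10, and Daglb was above in 2 and below in 1 (1.03). Napepld and Mgll were each above in 5 of the 6 and below in 0, with median ratios of 1.34 and 1.27. With 1 sorted library, which was also the deepest per cell, sorting, depth and pool cannot be told apart, and no test was made.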

How the data were processed

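Single-cell RNA was captured with the 10x Genomics 3' v3 chemistry and counted by the authors with Cell Ranger 3.0.2 on mm10, per the file headers and the submitters' processing notes, which also name Seurat 3.1.4. The deposited values are raw UMI counts per gene and cell, not normalized. The deposited metadata gives total counts and the authors' 7 subtype labels for the excitatory neurons, and recomputed totals differed from it by at most 70 UMIs per cell. The viral barcode row (111673 UMIs) was kept out of library sizes and tests, and was taken as the sum over the 5 barcodes, which was not tested. The number of value columns belonging to no sample of the series was 0.

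Cells were kept with 1000 to 60000 UMIs, 500 to 8000 genes and a mitochondrial share under 20%. Inhibitory cells met the rule given in the report. The other classes were gated on 5 markers each, with at least 5 UMIs of them and 5 times those of any other class. No doublet caller was run. These gates leave out cells in which another of these classes was also strong. The inhibitory rule sets no limit on glial or vascular markers, and excitatory cells were taken as labelled. Doublets may therefore remain among the neurons. UMI counts were summed per library and group, sums of under 10 cells were dropped, and the 4 cells of L5-Htr2c in the sorted library and the Pvalb-led cells of unsorted 3 were lost this way. edgeR 4.0.16 (R 4.3.3) was run with filterByExpr, TMM, the quasi-likelihood test and Benjamini-Hochberg adjustment over all genes tested. The scripts were tested on simulated data. The library entered each fit as a block, because the groups compared come from the same libraries. The SE was computed as the size of the log2 fold change over the square root of the test's F value. Intervals are 1.96 SE, a normal approximation.

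The alternatives were DESeq2 1.42.0, no filter on low counts, no block, leaving out each library, cells thinned to 5000 UMIs, stricter gates, no limits on cells and a barcode minimum of 1 UMI. Cells with fewer than 5000 UMIs were dropped for the thinning. The genes named are the 7 members in every comparison, the genes of the pathway list that were called or show where the pathway lies, cell type markers, and the 5 genes most like Cnr1 and Mgll. Values of some genes of these lists are not reported here. The members, lists and comparisons were chosen with earlier results of these data known. The sums over L6-Syt6 and Sncg-led cells left out were added after seeing the data, as was the split of Vip-led cells.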

Additional observations from a re-analysis of the deposited data

Results flagged for a closer look

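The difference between barcode-high and barcode-zero neurons in Mgll, the lipase of 2-arachidonoylglycerol, differed between some subtypes in the main fit. The test was edgeR's quasi-likelihood test of the difference itself. For L2/3-Rorb minus L5-S100b it was -0.90 ± 0.19 on the log2 scale (SE, adjusted p = 0.0083), and for L5-S100b minus L6-Syt6 it was 0.62 ± 0.14 (adjusted p = 0.00391). Both rest on L5-S100b, where Mgll was higher in the barcode-high neurons of 4 of 4 libraries, and on 195 barcode-zero cells. Neither was called without unsorted 2, without the library as a block or after thinning, and the first also not without unsorted 1. The 4 other differences between subtype pairs were not called for Mgll.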

How the results depend on the processing

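Over the 224 member values, 1804 values under alternatives kept their side of the threshold, 48 lost the call, 16 gained one and 2 called values changed sign. The first count includes values that were not called and changed sign. Abhd6 between inhibitory and excitatory neurons, for example, was 0.20 and then -0.01 after thinning. Thinning to 5000 UMIs kept only cells at least that deep, among them 23 of 452 astrocytes, 23 of 573 mural cells and 339 of 1506 OPC. This thinning lowered the genes called over the subtypes from 19568 to 12971 and over the classes from 57961 to 34611. The genes called fell from 9157 to 4344 over the inhibitory marker groups and from 634 to 273 over the barcode comparisons. Thinning also left 2 of 4 member calls between Adarb2 and Lhx6 cells and 0 of 1 in the barcode comparison. It turned Faah in astrocytes, which rests on 4 UMIs, to 0.18. DESeq2 called 2 members and 1481 genes between Adarb2 and Lhx6 cells, against 4 and 2423. A stricter marker gate gave 8 member calls over the inhibitory groups, against 13, with Lamp5-led cells no longer in the fit. Abhd6 in Pvalb-led cells was newly called (1.19), and Mgll in Sst-led cells was at 0.31. In the barcode comparison, counting cells from 1 viral UMI called 284 genes. The cause of these changes was not tested.

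Without the library as a block, the barcode comparison called 213 genes, and both Mgll differences between subtypes, Dagla in L5-Bcl6 and Dagla in L5-Htr2c were lost, and no other member call changed. The other comparisons called 6174 (inhibitory against excitatory), 18758 (subtypes), 57906 (classes), 9182 (inhibitory groups) and 2409 genes (Adarb2 against Lhx6). Leaving out 1 library at a time gave 5 to 5 member calls for inhibitory against excitatory neurons (5936 to 6015 genes), 20 to 21 over subtypes (18391 to 18955), 33 to 37 over classes (54438 to 54508), 10 to 13 over inhibitory groups (6427 to 8637), 4 to 4 for Adarb2 against Lhx6 cells (2313 to 2428) and 1 to 2 for the barcode comparison (490 to 632), the 2 being those without the sorted library. Depth limits the low members most: Napepld, Dagla and Faah held 1 to 25 UMIs in astrocytes, and Dagla 9 in Sncg-led cells, so that counting error alone is large there.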
